A study of Homo sapiens with 6 samples.

Results

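The genes described here are the nuclear-encoded subunits of the respiratory chain and the ATP synthase, as transcribed in K562 cells with a changed RUNX1 gene. Members were chosen by name alone: protein-coding genes of the RPKM table whose names begin with NDUFA, NDUFB, NDUFC, NDUFS or NDUFV (without the NDUFAF assembly factors), SDHA to SDHD, UQCR, COX4 to COX8, ATP5F1, ATP5M or ATP5P. The rule gave 89 of the 60131 genes of that table, and all 89 were also found by Entrez identifier among the 28395 genes of the normalized count table. By name, 40 belonged to complex I, 4 to complex II, 9 to complex III, 17 to complex IV and 19 to complex V. The names NDUFA4 and NDUFA4L2 stand with complex I here, although RefSeq now calls these genes COXFA4 and COXFA4L2 and NDUFA4 is known as a subunit of complex IV. ATP5MD and ATP5MPL are ATP5MK and ATP5MJ in RefSeq.

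RNA was sequenced from 3 libraries of K562 cells whose genotype the labels give as RUNX1 R320* and 3 libraries of K562 cells with wild-type (WT) RUNX1. K562 is an established human leukaemia line that carries BCR-ABL1 and expresses many erythroid genes, RUNX1 is a transcription factor of blood formation, and the asterisk denotes a stop codon. How the change was made, whether the R320* cells are 1 clone, and whether the libraries of a genotype are separate cultures are not stated by the labels or the files, so the p-values below measure the spread between these libraries, which may be technical. All 6 libraries came from untreated cells in the same medium, and the stated purpose was to compare transcription between the genotypes.

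Complexes I to IV pass electrons from NADH and succinate to oxygen and, at complexes I, III and IV, pump protons across the inner mitochondrial membrane. Complex V, the ATP synthase, uses the returning protons to make ATP. Most subunits of these machines are made from nuclear genes and imported, while a small core set is encoded by mitochondrial DNA, and the nuclear genes are known to share binding sites for the factors NRF1, GABP (an ETS factor) and YY1.

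If the smallest nonzero value of each library stands for 1 read, between 29058471 and 31306435 reads per library were assigned to genes. Members took 1.12 to 1.19% of the normalized counts in R320* libraries, against 1.38 to 1.44% in WT libraries. RUNX1 itself had 5209, 5026 and 5261 normalized counts in R320* libraries, against 2969, 2922 and 2908 in WT libraries, a gain in R320* of 0.82 ± 0.04 SE on the log2 scale (adjusted p = 4.4e-11, limma). A stop codon need not lower a transcript, so this value does not test the labels. All 8 markers chosen for K562 were expressed in both genotypes, with a summed level of 47520.1 to 57360 normalized counts in R320* and 43280.4 to 44929.5 in WT. The difference lay in HBG1, a fetal globin, and without it the sums were 30225 to 31509 in R320* and 30436 to 31749 in WT. Of the 8 markers GATA1 and HBE1 were lower in R320*, at -0.55 and -0.47 on the log2 scale (limma adjusted p = 2.83e-09 and 4.23e-07), and the other 6 were higher. The summed level of 8 T and B cell markers was 759 to 834 in R320* and 1027 to 1076 in WT, mostly from CD3D, with CD2 at 0 in all libraries and CD79B and MS4A1 at 3 counts or fewer. For 9 fibroblast and epithelial markers the sums were 2711 to 2951 and 3436 to 3522, mostly from COL1A2. That gene was lower in R320*, at -0.315 (limma adjusted p = 1.51e-05), while COL1A1 was higher, at 0.61 (adjusted p = 0.0313). COL3A1, CDH1, DCN and LUM stood below 20 counts in each library. KRT5 and KRT14 had 21.0 and 11.4 counts in R320* library 3 and 0 in every other library. Both of these sums were lower in R320*, as many members were, and their part in the members' values was not tested. In such bulk libraries fewer cells of a kind and less RNA per cell cannot be told apart.

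The subunit genes were mostly lower in R320* cells. A gene was called when the limma fit over the whole table gave a Benjamini-Hochberg adjusted p below 0.05. Of the 89 members 78 had enough counts to be tested (at least 10 in at least 3 libraries), and 56 of these were lower in R320*, 3 were higher and 19 were not called. Among all 14299 genes tested, 27.4% were called lower and 26.4% higher, against 71.8% and 3.85% of the members. The median log2 fold change of the members was -0.25, which is 84.2% of the WT level, while the median over all genes was 0.01. Every R320* library lay below every WT library for 55 members, to be read against 30.2% of all genes, and above every WT library for 6. The genotypes did not overlap, in either direction, for 59.8% of all genes. The genes called higher were NDUFV2, SDHA and COX6B2. The same values can be laid out by library, as the median deviation of the tested members from their WT means. This was -0.20, -0.27 and -0.28 (log2) in R320* libraries 1, 2 and 3. In the WT libraries it was -0.02, -0.02 and 0.04, near 0 because the WT mean is subtracted.

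R320* library 1 stood closer to WT than the other 2 R320* libraries. It was the highest of the 3 for 43 of the 56 members called lower (76.8%), compared with 38.9% of all 3914 genes called lower. WT library 3 was the highest of the WT libraries by this median deviation. Without R320* library 1 the members' median was -0.27 and 56 members were lower. Without WT library 3 the median was -0.22 and 54 members were lower.

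**Figure D1:**
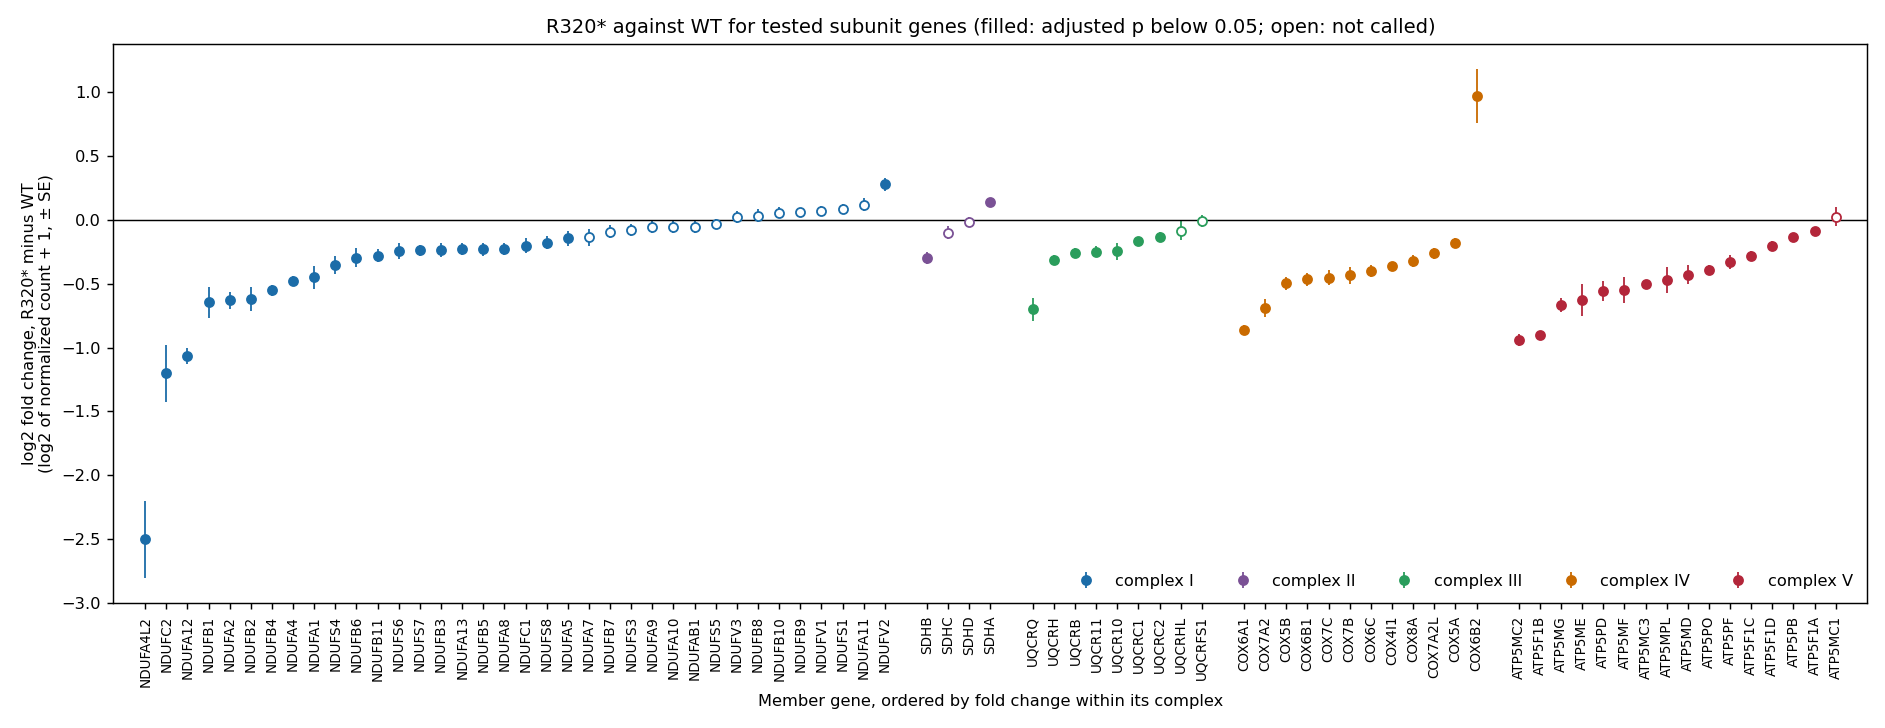
Log2 fold change of R320* against WT for 77 of the 78 tested subunit genes (y axis, log2 of normalized count + 1, bars are SE from limma), ordered within complexes I to V along the x axis. Filled points are called and open points are not; most filled points lie below 0, and NDUFV2, SDHA and COX6B2 are the filled points above it.

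**Figure D2:**
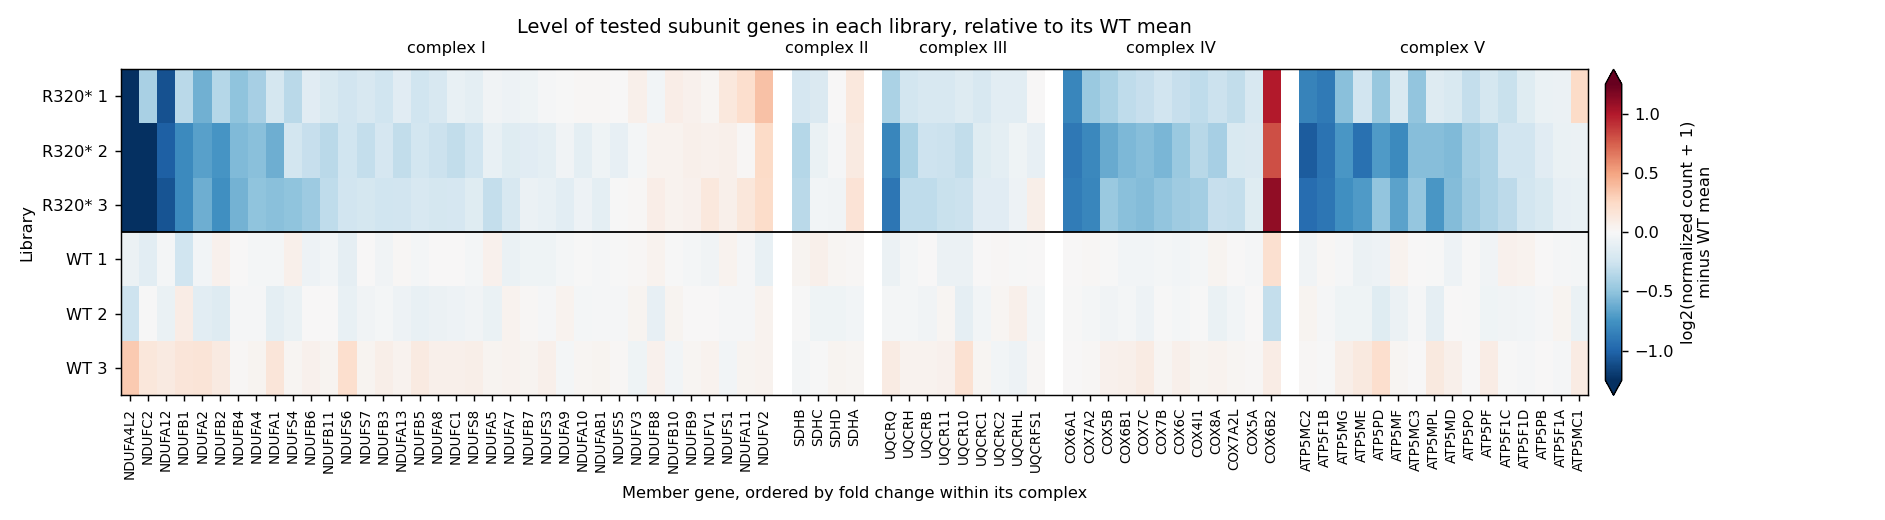
Level of the same 77 subunit genes (columns, by complex) in each library (3 R320* libraries above, 3 WT libraries below the line), as log2(normalized count + 1) minus the gene's WT mean. Blue is below the WT mean and red above it, with colours saturating at the ends of the scale; the first R320* library is paler than the other 2 over most columns of complexes III to V.

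The deposited RPKM table, a second measure of the same libraries that scales by gene length, gave a similar picture. Of 82 members tested there 50 were lower in R320* and 3 higher (NDUFV2, NDUFS1 and SDHA), with a median log2 fold change of -0.27 (log2 of RPKM + 0.1). Over all 17769 genes tested in RPKM, 31.9% were called, 16.8% as lower and 15.1% as higher. Of 77 members tested in both measures, 46 were lower in both and 73 had the same sign in both. The Spearman correlation between the fold changes in the tables was 0.909 over these 77 genes, a description only, since the tables come from the same reads.

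The promoters of these genes offer one feature that the choice by name did not use. RefSeq (GRCh38.p14) windows, 250 bases before to 50 after the annotated start, were at hand for 72 of the 89 members and were searched on both strands for 3 motifs spelled CGCATGCG (NRF1, a core that reads the same on both strands), CCGGAAG (ETS factors such as GABP) and AAGATGGC (YY1), none of which contains another. The NRF1 letters stood in 11 members (15.3%), against 4.49% of the 11018 tested genes with a window. The ETS letters stood in 21 (29.2%), against 21.6%, and the YY1 letters in 12 (16.7%), against 6.24%. Among the 47 members called lower with a window, the NRF1, ETS and YY1 letters stood in 10, 17 and 7, and among the 18 tested members not called lower in 1, 4 and 3. The NRF1 values depend on the spelling: a longer form with a G before and a C after, which was the one searched first, stood in 4 members (5.56%), against 2.68% of tested genes, and in 3 of the 47 and 1 of the 18. These are matches of letters and were not tested as binding or as a difference.

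Printed here as examples are the 250 bases before the start of the 3 members with the largest falls, among those lower in both tables whose window begins at the outermost start of the gene, that hold the NRF1 letters there. Capitals mark the matched NRF1 and ETS letters. COX6A1 lies on the forward strand at chr12:120437863-120438112 and holds the NRF1 letters 219 bases and the reverse complement of the ETS letters 16 bases before the start. ATP5ME lies on the reverse strand at chr4:674277-674526 with the NRF1 letters 77 bases before the start. NDUFB4 lies on the forward strand at chr3:120596086-120596335 with the NRF1 letters 158 bases before the start.
COX6A1: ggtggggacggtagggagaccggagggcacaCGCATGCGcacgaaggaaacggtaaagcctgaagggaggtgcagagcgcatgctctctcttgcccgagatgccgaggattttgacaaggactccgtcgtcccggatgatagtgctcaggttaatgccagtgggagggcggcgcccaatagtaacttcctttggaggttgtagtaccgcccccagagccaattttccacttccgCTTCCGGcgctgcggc
ATP5ME: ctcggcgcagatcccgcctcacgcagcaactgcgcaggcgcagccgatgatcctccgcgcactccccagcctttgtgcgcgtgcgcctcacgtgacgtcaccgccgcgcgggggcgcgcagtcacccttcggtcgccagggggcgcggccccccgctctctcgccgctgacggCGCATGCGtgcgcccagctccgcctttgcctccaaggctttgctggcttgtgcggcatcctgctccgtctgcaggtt
NDUFB4: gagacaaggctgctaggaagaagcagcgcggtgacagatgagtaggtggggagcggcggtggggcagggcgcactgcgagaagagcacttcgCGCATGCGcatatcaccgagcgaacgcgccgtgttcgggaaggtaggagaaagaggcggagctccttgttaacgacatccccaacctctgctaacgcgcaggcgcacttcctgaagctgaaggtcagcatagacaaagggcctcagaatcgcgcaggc

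Complex I, which oxidises NADH, was the most mixed of the large complexes. Of its 37 tested genes 22 were lower in R320*, 1 was higher and 14 were not called, with a median log2 fold change of -0.20. Summed over the complex, RPKM averaged 6649 ± 268 in R320* and 7691 ± 212 in WT (SD, n = 3 each), or 86.5% of WT. Among the accessory subunits, which surround the catalytic core, 17 of 28 tested genes were lower and 0 higher (1 at an unadjusted limma p below 0.05, and 0 called higher in RPKM), with a median of -0.23.

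Among the core genes that bind NADH and carry its electrons, NDUFV2, an iron-sulfur subunit, had 4390.5, 4019 and 4002 normalized counts in R320* libraries, against 3203, 3514 and 3509 in WT libraries. The genotypes did not overlap, and limma gave a log2 fold change of 0.28 ± 0.05 SE (adjusted p = 0.000159). NDUFV1, which binds NADH and FMN, and NDUFS1, the largest iron-sulfur subunit, were not called: their log2 fold changes were 0.07 (95% interval -0.01 to 0.15) and 0.09 (-0.01 to 0.18). NDUFS1 was called higher in the RPKM table, at 0.19 (limma adjusted p = 0.0432). NDUFV2 overlaps the antisense gene NDUFV2-AS1, and reads from the pair cannot be told apart because the use of strand in counting is not given.

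NDUFS7 and NDUFS8, core genes of the ubiquinone-reducing part, were lower. NDUFS7 had 4011, 3771 and 3967 normalized counts in R320* libraries, against 4635, 4488 and 4739.6 in WT libraries. NDUFS8, which carries a pair of iron-sulfur clusters, had 3299, 3023 and 3240.0 in R320*, against 3539.7, 3482 and 3788 in WT. Neither gene's libraries overlapped between the genotypes, and the log2 fold changes were -0.24 ± 0.04 SE (limma adjusted p = 0.00013) and -0.18 ± 0.05 SE (adjusted p = 0.005). NDUFS3 was not called, at -0.08 (95% interval -0.18 to 0.02).

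Accessory subunits of complex I held the larger falls. NDUFA12, which sits between the NADH-oxidising and the ubiquinone-reducing parts of the enzyme, had 765, 799.8 and 767 normalized counts in R320* libraries, against 1602, 1531 and 1756 in WT libraries. R320* stood at 47.8% of WT, with a log2 fold change of -1.07 ± 0.06 SE (limma adjusted p = 7.39e-10). NDUFA2, an accessory subunit of the NADH arm, had 1786, 1688 and 1767 in R320*, against 2644, 2467 and 3034 in WT, a log2 fold change of -0.63 ± 0.06 SE (adjusted p = 3.82e-07). In both genes all R320* libraries lay below all WT libraries.

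In the membrane arm, NDUFB4 had 2459, 2376 and 2319 normalized counts in R320* libraries, against 3511, 3449 and 3519 in WT libraries, and a log2 fold change of -0.55 ± 0.04 SE (limma adjusted p = 1.71e-08). NDUFB1 and NDUFB2, small subunits of the same arm, were lower by a like amount, at -0.64 and -0.62 (adjusted p = 0.00029 and 3.76e-05). NDUFB2 overlaps an antisense gene and is uncertain for that reason. Apart from NDUFC2, the other called accessory genes, among them NDUFA13, NDUFB11 and NDUFS4, fell by smaller amounts, and NDUFA9, NDUFA10, NDUFAB1, NDUFS5 and NDUFB8 were among those not called. NDUFS5 had the highest level of any complex I gene in the RPKM table, at 609 ± 18.5 RPKM in R320* and 627 ± 11.4 in WT, and a log2 fold change there of -0.04, not called. NDUFA5 was called lower at -0.15 (adjusted p = 0.0416), with overlapping libraries, and lost the call in 4 of the 6 fits that left out 1 library.

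NDUFC2 depended on the table. It had 471, 213 and 195 normalized counts in R320* libraries, against 567, 618 and 688 in WT libraries, a log2 fold change of -1.20 ± 0.22 SE (limma adjusted p = 0.000263). In RPKM it stood at 306, 317 and 322 in R320* and 340.4, 336 and 358 in WT, a log2 fold change of -0.13 ± 0.04 SE (adjusted p = 0.0403). Both tables put R320* below WT in all libraries, but by different amounts. The readthrough gene NDUFC2-KCTD14 covers the same exons and had 0 counts in all 6 libraries, so reads of the pair may be split or dropped.

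NDUFA4 and NDUFA4L2 are paralogs counted with complex I by their older names. NDUFA4 had 5468, 5088 and 5165 normalized counts in R320* libraries, against 7205, 7244 and 7464 in WT libraries, a log2 fold change of -0.48 ± 0.04 SE (limma adjusted p = 2.54e-08). NDUFA4L2, a gene induced by HIF1 in low oxygen, had 12.7, 23.8 and 21.0 in R320*, against 105, 91.7 and 139 in WT, at 17.6% of WT (log2 fold change -2.50 ± 0.30 SE, adjusted p = 2.74e-06). It had the largest fall of all tested members, at a level near 3.54 ± 0.603 RPKM in WT. Counted with complex IV instead, the pair changed the medians to -0.18 for complex I and -0.44 for complex IV.

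Complex II, succinate dehydrogenase, which belongs to both the citrate cycle and the respiratory chain, differed in direction among its 4 genes. SDHA, the flavoprotein that oxidises succinate, had 8649.6, 8528 and 8858 normalized counts in R320* libraries, against 7962, 7679.8 and 7999 in WT libraries. SDHB, the iron-sulfur subunit, had 3059, 2776 and 2818 in R320*, against 3629.6, 3528 and 3494 in WT. The genotypes did not overlap for either gene, SDHA being higher in R320* and SDHB lower. The log2 fold change was 0.14 ± 0.04 SE for SDHA (limma adjusted p = 0.00319) and -0.30 ± 0.05 SE for SDHB (adjusted p = 3.97e-05). The membrane anchors SDHC and SDHD overlapped between the genotypes and were not called, with 95% intervals of -0.20 to 0.00 and -0.10 to 0.07. Summed RPKM of the complex averaged 596 ± 10.5 in R320* and 598 ± 13.9 in WT (SD, n = 3 each). SDHA has near-identical pseudogenes with which it may share reads.

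Complex III, which passes electrons from ubiquinol to cytochrome c, had 7 of 9 tested genes lower and 0 higher (0 also at an unadjusted limma p below 0.05 and 0 called higher in RPKM), with a median of -0.25. UQCRQ, a small membrane subunit, had 3279.6, 2452 and 2306 normalized counts in R320* libraries, against 4077, 4218 and 4628 in WT libraries, a log2 fold change of -0.70 ± 0.09 SE (limma adjusted p = 7.33e-06). UQCRH, the hinge protein beside cytochrome c1, had 19523, 17429 and 18407 in R320*, against 22536, 22522 and 23625 in WT, a log2 fold change of -0.31 ± 0.04 SE (adjusted p = 5.47e-06). Neither gene's libraries overlapped, and R320* library 1 was the highest of its genotype in both. UQCRH had the highest level of all members per length, at 2266 ± 89.9 RPKM in R320* and 2755 ± 64.1 RPKM in WT.

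UQCRB, UQCR10 and UQCR11, further small subunits of complex III, had log2 fold changes of -0.26, -0.25 and -0.25, and the large core proteins UQCRC1 and UQCRC2 of -0.17 and -0.13, all called lower (limma adjusted p between 3.77e-05 and 0.00704). In the RPKM table UQCR10 lost its call (-0.25, adjusted p = 0.0537), and UQCRC2 was not lower, with a log2 fold change of 0.05 (adjusted p = 0.525). UQCRFS1, the Rieske iron-sulfur protein and one of the catalytic subunits, had 4731, 4363 and 4928 normalized counts in R320* libraries, against 4725, 4626 and 4747 in WT libraries, and was not called (95% interval -0.11 to 0.09). Cytochrome c1 itself, CYC1, lies outside the naming rule and was higher in R320*, with 10764 ± 419 against 9072 ± 517 normalized counts in WT (SD, n = 3 each) and a log2 fold change of 0.25 ± 0.04 SE (adjusted p = 0.000139). The median over the complex was -0.15 without WT library 3.

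Complex IV, cytochrome c oxidase, had 11 of its 12 tested genes lower and 1 higher, with a median of -0.42. Its summed RPKM averaged 4768 ± 316 in R320* and 6606 ± 166 in WT (SD, n = 3 each), or 72.2% of WT. COX6A1, the isoform of subunit 6A used outside muscle, had 3926, 3705 and 3754 normalized counts in R320* libraries, against 6895, 6866 and 6918 in WT libraries. COX7A2, the form of subunit 7A used outside heart and muscle, had 3489, 2742 and 2733 in R320*, against 4844, 4723 and 4833 in WT. For both genes the highest R320* library was well below the lowest WT library. The log2 fold changes were -0.86 ± 0.04 SE (limma adjusted p = 1.4e-11) and -0.69 ± 0.07 SE (adjusted p = 3.76e-07).

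COX4I1, the main form of the regulatory subunit 4, had 9832, 9614 and 9149 normalized counts in R320* libraries, against 12036, 12197 and 12530.0 in WT libraries, a log2 fold change of -0.36 ± 0.04 SE (limma adjusted p = 3.31e-07). COX5B, which binds zinc, had 5245, 4450.3 and 5010.5 in R320*, against 6862, 6691 and 7164 in WT, a log2 fold change of -0.50 ± 0.05 SE (adjusted p = 5.3e-07). COX6B1, COX7C, COX7B, COX6C and COX8A had log2 fold changes of -0.47, -0.45, -0.44, -0.40 and -0.32 and no overlap between the genotypes. COX5A and COX7A2L, a factor that joins complexes III and IV into supercomplexes, fell least, by 0.18 and 0.26 on the log2 scale. The call of COX7A2L was lost in the RPKM table (adjusted p = 0.113). Without R320* library 1 the median of the complex was -0.50.

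Of the tissue-restricted isoforms of complex IV, COX6B2, known from testis, was the one with enough counts to test. It had 126, 110.1 and 136 normalized counts in R320* libraries, against 72.2, 50.8 and 66.7 in WT libraries, and was higher by a log2 fold change of 0.97 ± 0.21 SE (limma adjusted p = 0.000981). Its RPKM values of 5.69, 5.45 and 9.77 in R320* and 8.38, 2.75 and 3.58 in WT overlapped, and the gene was not called there (adjusted p = 0.327). COX6B2 made up 1.24 ± 0.52% of the summed RPKM of COX6B1 and COX6B2 in R320* and 0.62 ± 0.39% in WT (SD, n = 3 each), so COX6B1 supplied nearly all of it in both. COX4I2, COX6A2 and COX7B2 were at 0 in all libraries in both tables. COX8C had 0 counts in all libraries, and COX7A1 had at most 7.94 normalized counts in R320* and 10.1 in WT.

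Complex V, the ATP synthase, had 15 of 16 tested genes lower and 0 higher (0 also at an unadjusted limma p below 0.05 and 0 called higher in RPKM), with a median of -0.45. Its summed RPKM averaged 7405 ± 655 in R320* and 10172 ± 217 in WT (SD, n = 3 each), or 72.8% of WT. In the catalytic head, ATP5F1B, which encodes the beta subunit with the catalytic sites, had 26523, 25852 and 26109 normalized counts in R320* libraries, against 49446, 48427 and 48797 in WT libraries. R320* stood at 53.5% of WT, with a log2 fold change of -0.90 ± 0.03 SE (limma adjusted p = 4.51e-13). ATP5F1A, which encodes the alpha subunit that alternates with beta in the ring of the head, had 17706, 17503 and 17334 in R320*, against 18379, 18995 and 18436 in WT. Its log2 fold change was -0.09 ± 0.03 SE (adjusted p = 0.0288), and the call was lost in 4 of the 6 fits that left out 1 library and in the RPKM table (adjusted p = 0.295). ATP5F1C and ATP5F1D, of the central stalk that turns inside the head, had log2 fold changes of -0.28 and -0.21 (adjusted p = 2.4e-05 and 0.000284).

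The alpha and beta subunits are present in equal number in the enzyme, and the proportion of their transcripts differed between the genotypes. ATP5F1A made up 37.8, 37.8 and 38.03% of the summed RPKM of ATP5F1A and ATP5F1B in R320* libraries, against 24.9, 25.8 and 25.4% in WT libraries. The genotypes were far apart on this share relative to their spread. In RPKM the log2 fold change was -0.05 for ATP5F1A and -0.89 for ATP5F1B. The genes around ATP5F1B were lowered too, as given below.

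The c subunit, which forms the rotating ring in the membrane, is encoded by 3 genes whose mature proteins are known to be identical. ATP5MC2 had 5079.7, 4422 and 4699 normalized counts in R320* libraries, against 8803, 9323 and 9158 in WT libraries, and ATP5MC3 had 10570.3, 10252 and 10582 in R320*, against 14936, 14673 and 14905 in WT. Both were lower with no overlap, by log2 fold changes of -0.94 ± 0.05 SE and -0.50 ± 0.03 SE (limma adjusted p = 5.25e-11 and 1.51e-09). ATP5MC1 had 2529, 2045 and 2014 in R320*, against 2113, 2025 and 2313 in WT, overlapped between the genotypes and was not called (95% interval -0.13 to 0.18). In RPKM, ATP5MC1 made up 18.9 ± 1.34% of the 3 genes' sum in R320* and 12.0 ± 0.61% in WT, ATP5MC2 24.2 ± 0.74% and 32.9 ± 0.54%, and ATP5MC3 56.8 ± 1.92% and 55.1 ± 0.40% (SD, n = 3 each). The sum of the 3 genes stood at 68.6% of WT.

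All 4 peripheral stalk genes, which hold the head still against the turning ring, were lower. ATP5PD had 3171, 2689 and 3128 normalized counts in R320* libraries, against 4221, 3967 and 5076 in WT libraries (log2 fold change -0.56 ± 0.08 SE, limma adjusted p = 1.15e-05). ATP5PO, the subunit that confers oligomycin sensitivity, had 10518, 9643 and 9526 in R320*, against 12918, 12942 and 13045 in WT (-0.39 ± 0.04 SE, adjusted p = 3.01e-07). ATP5PF and ATP5PB followed at -0.33 and -0.14. ATP5PB lost its call in the RPKM table (adjusted p = 0.0873), where the rest kept theirs. All 5 small membrane subunits that were tested were lower too, with a median of -0.55. ATP5MG, subunit g, had 4359, 3784 and 3678 normalized counts in R320* libraries, against 6185, 6002 and 6568 in WT libraries (-0.67 ± 0.06 SE, adjusted p = 3.65e-08). ATP5ME and ATP5MF, subunits e and f, which with g are known to shape rows of ATP synthase dimers, had log2 fold changes of -0.63 and -0.55, and ATP5MPL and ATP5MD of -0.47 and -0.43. For these 4 genes R320* library 1 lay nearest to WT, for example at 1097 counts of ATP5ME, against 677 and 789 in the other R320* libraries.

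**Figure D3:**
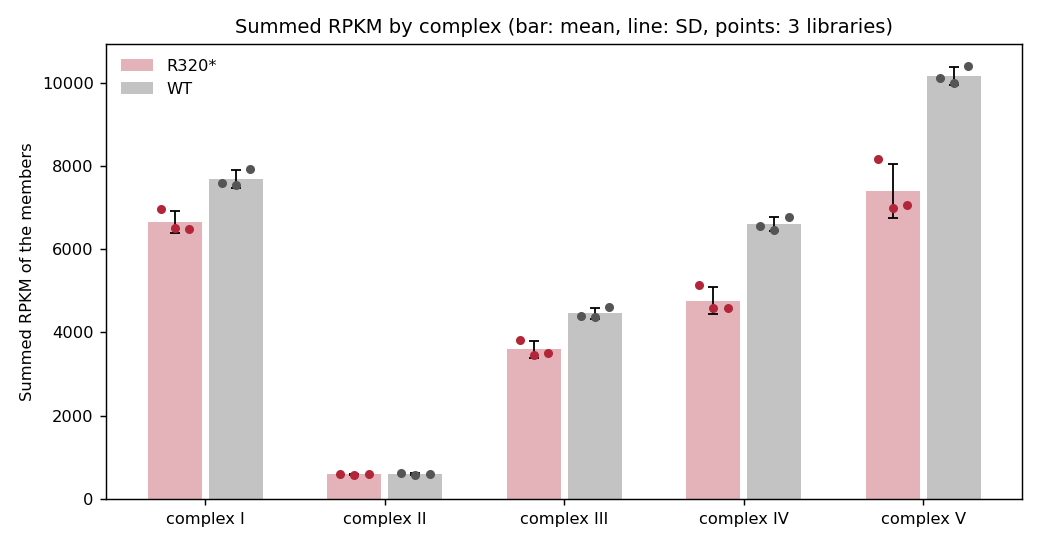
Summed RPKM of the members of each complex, with R320* left and WT right (bars are means, lines SD, points the 3 libraries of a genotype). R320* is below WT in complexes I, III, IV and V, with means at 86.5, 80.6, 72.2 and 72.8% of WT, while in complex II the means are within 1 SD of each other. Most of the complex III sum is UQCRH, with 2266 of 3593 RPKM in R320* and 2755 of 4459 in WT.

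The tables disagreed on the level of a few members, which are named here after their values were seen. NDUFA3, NDUFA6 and ATP5F1E had at most 13.6, 1 and 12.7 normalized counts in any library and were not tested in the count table, yet stood at 90.8 to 220, 68.8 to 81.1 and 70.6 to 98.4 RPKM. In RPKM all 3 were lower in R320*, at -0.94, -0.19 and -0.30 (limma adjusted p = 0.0185, 0.00871 and 0.0119). UQCRHL, a near-identical copy of UQCRH, had 660 to 759 normalized counts but at most 0.57 RPKM, so its counts may be reads of UQCRH. NDUFA3 overlaps TFPT and ATP5F1E overlaps a readthrough gene. ATP5MF-PTCD1, a readthrough of ATP5MF, had 0 counts and 4.78 to 6.13 RPKM. Altogether 11 members were not tested in the counts and 7 not in RPKM.

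Position on the chromosomes went along with some of these values. For each member the median log2 fold change of up to 25 nearest tested genes on each side, members left out, was taken as the level of its neighbourhood. In 9 members it was below -0.2: ATP5F1B, ATP5MC2, NDUFA4L2, NDUFA12 and COX6A1 on chromosome 12, NDUFA2 and UQCRQ on chromosome 5, ATP5MG on chromosome 11 and NDUFA1 on the X chromosome. All 9 were lower, with a median of -0.86, while of 1261 other genes in such neighbourhoods 65.6% were lower, with a median of -0.43. The neighbours of ATP5F1B had a median of -0.71 and those of ATP5F1A 0.06. For ATP5MC2, ATP5MC3 and ATP5MC1 the neighbours' medians were -0.68, 0.01 and -0.03. Over chromosome 12 the 757 other tested genes had a median of -0.49. Of the 3 members with a neighbourhood above 0.2, NDUFV2 and SDHA were called higher and NDUFB9 was not called, while 370 of 787 other genes in such neighbourhoods were higher, with a median of 0.20. SDHA lies near a chromosome end and had 26 neighbours instead of 50, almost all on 1 side. Copy number was not measured here, and the part of the neighbourhood in these values was not tested.

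The remaining 66 members lay where the neighbours' median was between -0.2 and 0.2. Of these 47 were lower (71.2%) and 1 higher, with a median of -0.24, while of 12015 other genes in such neighbourhoods 24.1% were lower and the median was 0.02. These 66 are most of the 78 tested members, so their lowered share had to lie near that over all tested members. The part of the neighbourhood was not tested. Here lay COX7A2, COX5B, ATP5MC3, ATP5PO and NDUFB4, with neighbourhood medians of -0.10, 0.12, 0.01, 0.06 and -0.10. The 1 gene called higher was COX6B2. Across the 78 tested members the Spearman correlation between a gene's fold change and that of its neighbours was 0.446, given as a description.

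**Figure D4:**
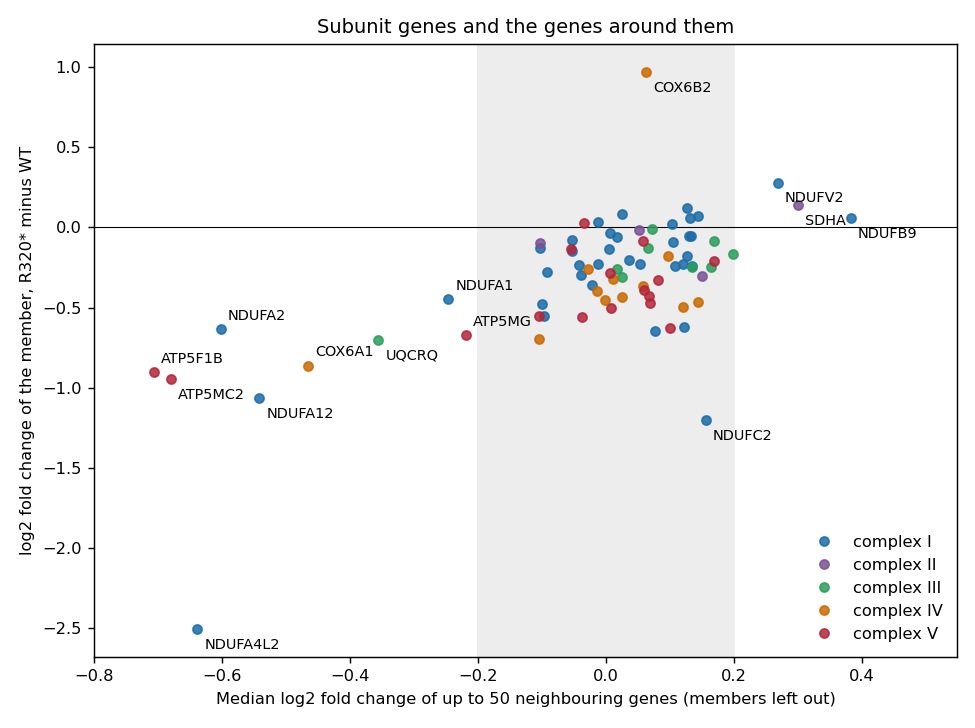
Log2 fold change of each tested subunit gene (y axis, R320* minus WT) against the median log2 fold change of up to 50 neighbouring genes (x axis), coloured by complex. The grey band marks neighbourhoods between -0.2 and 0.2; the 9 genes left of it all lie below 0 and the 3 right of it above 0, and within it most genes lie below 0.

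Transcript length also went along with the fold change. Most subunits are small proteins, and 62 of the 78 tested members had a median transcript length under 1000 bases. Of these 75.8% were lower, with a median of -0.30, against 31.0% of 2943 other protein-coding genes of that length, whose median was -0.02. All 5 members of at least 1000 and below 1500 bases were lower, with a median of -0.28, against 29.7% of other protein-coding genes of that length. The 9 members of at least 1500 and below 2500 bases had 44.4% lower and a median of -0.08, against 27.2% of other genes, and neither of the 2 longer members was called. The Spearman correlation between length and fold change over the 78 members was 0.355, a description only, and the part of length in the members' values was not tested.

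The 13 subunits encoded by mitochondrial DNA are the partners of these proteins within complexes I, III, IV and V. As a group they took 4.43% of the normalized counts in R320* and 5.40% in WT. Of the 13, 7 were called lower (53.8%, against 27.4% of all genes) and 2 higher (15.4%, against 26.4%), with a median of -0.10. MT-CO1, the catalytic subunit of complex IV, had 256873, 250085 and 249859.6 normalized counts in R320* libraries, against 391765, 409268 and 392102 in WT libraries (log2 fold change -0.66 ± 0.03 SE, limma adjusted p = 1.01e-10). MT-CO2 and MT-ATP6 were lower as well, at -0.57 and -0.46 (adjusted p = 1e-09 and 6.19e-07). The complex I subunits MT-ND1 and MT-ND2 were those called higher, at 0.23 and 0.10 (adjusted p = 9.95e-05 and 0.0475), while MT-ND3 and MT-ND4 were lower, at -0.39 and -0.21.

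Assembly factors, which build the complexes without staying in them, were called at shares near those of all genes. Of 60 tested, 16 were higher (26.7%, against 26.4% of all genes) and 13 lower (21.7%, against 27.4%), with a median of -0.02. LRPPRC, which stabilises mitochondrial mRNAs, was higher, at 0.36 ± 0.04 SE (limma adjusted p = 4.5e-07). TMEM70 of the ATP synthase and COX17, a copper carrier for complex IV, were lower, at -0.72 and -0.54 (adjusted p = 1.38e-08 and 1.34e-05). The largest falls were those of UQCC6 and COX14, at -0.91 and -0.82 (limma adjusted p = 1.33e-06 and 3.7e-06). Both lie on chromosome 12, with neighbourhood medians of -0.64 and -0.53. COX20 had the largest rise, at 0.91 (limma adjusted p = 0.00255). By complex, the factors of complex I were called higher 7 times and lower 2 times of 18, those of complex II 0 times in either direction of 4 (0 also at an unadjusted limma p below 0.05), those of complex III 3 and 4 times of 8, those of complex IV 6 times each of 25 and those of the ATP synthase 0 and 1 time of 5 (1 and 1 unadjusted).

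Regulators of these genes and of mitochondrial DNA were more often higher than lower, 9 (47.4%) against 3 (15.8%) of 19 tested, with a median of 0.06. Among all genes tested, 26.4% were higher and 27.4% lower. POLG, the mitochondrial DNA polymerase, was higher at 0.62 ± 0.05 SE (limma adjusted p = 1.95e-08). POLRMT, the mitochondrial RNA polymerase, was higher at 0.42 (adjusted p = 8.92e-08), and PPRC1, a coactivator, at 0.36 (adjusted p = 5.73e-06). The neighbourhood medians of POLG, POLRMT and PPRC1 were -0.05, 0.35 and 0.05. TFAM, which packages and transcribes mitochondrial DNA, was higher at 0.25, with 4089 ± 160 normalized counts in R320* and 3426 ± 78.9 in WT (SD, n = 3 each). Of the factors whose letters were searched in the promoters, NRF1 and YY1 were not called (adjusted p = 0.336 and 0.383), GABPA was higher at 0.22 and GABPB1, the partner of GABPA, lower at -0.33. PPARGC1A was at or near 0 in all libraries.

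The citrate cycle and pyruvate dehydrogenase, which feed electrons to complexes I and II, had 8 of 18 genes lower (44.4%, against 27.4% of all genes). A further 4 were higher (22.2%, against 26.4%), and the median was -0.07. IDH2 was lower, with 1035, 1069.7 and 1064 normalized counts in R320* libraries, against 2752, 2717 and 2911 in WT libraries (log2 fold change -1.40 ± 0.05 SE, limma adjusted p = 1.31e-12). Citrate synthase, CS, on chromosome 12 with a neighbourhood median of -0.66, was lower at -0.46 (adjusted p = 6.63e-09), and DLAT was higher at 0.29 (adjusted p = 1.1e-05). Of the other partners of the chain, cytochrome c, CYCS, was lower at -0.25 ± 0.04 SE and the ATP synthase inhibitor ATP5IF1 at -0.23 ± 0.06 SE (adjusted p = 9.95e-05 and 0.0033).

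**Figure D5:**
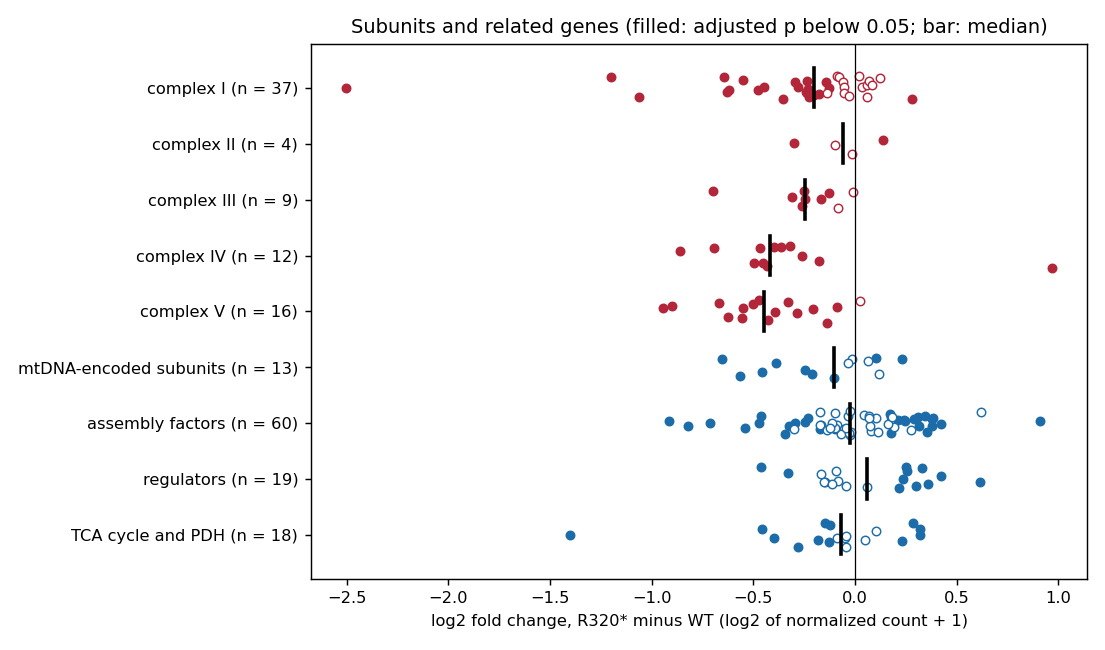
Log2 fold change of R320* against WT (x axis, log2 of normalized count + 1) for the tested subunit genes by complex (red) and for related gene lists (blue), with 1 point per gene, filled where called, and a bar at each list's median. The medians of complexes I to V lie at -0.20, -0.06, -0.25, -0.42 and -0.45. Those of the subunits encoded by mitochondrial DNA, the assembly factors, the regulators and the citrate cycle genes lie at -0.10, -0.02, 0.06 and -0.07.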

How the data were processed

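The 6 libraries (3 R320*, 3 WT) were analysed from the deposited tables. Per the labels' protocols, TRIzol was used for total RNA and a NEBNext Ultra II kit for the libraries. HISAT2, featureCounts, DESeq2, Salmon and the hg38 build are named in the submitters' processing notes, without versions, parameters or the use of strand. The deposited signal values are read counts per Entrez gene that the authors scaled by library: each column holds whole multiples of its smallest value (tolerance 1e-06). RPKM values as deposited cover Ensembl genes. Their columns sum to 721735 to 786389, so another length-scaled unit cannot be told apart from RPKM.

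Members were matched through the GENCODE 29 identifiers, and positions, names and promoters came from RefSeq GRCh38.p14. Transcript length is the median over a gene's protein-coding GENCODE transcripts. Genes with 10 or more normalized counts in 3 or more libraries entered a whole-table limma 3.58.1 fit (R 4.3.3, empirical Bayes, intensity trend) of log2(normalized count + 1), R320* minus WT, with Benjamini-Hochberg adjustment. A like fit used log2(RPKM + 0.1) for genes reaching 0.5 RPKM in 3 or more libraries. The pseudocount understates the fold changes of low genes. The fit was also run on simulated counts, with the same spread setting for every gene and far fewer changed genes than were called here. That run cannot vouch for the calls in these data. The alternatives were other pseudocounts, filters and scalings, a replicate block, each library left out and the RPKM table.

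Genes were named by a rule: in each complex the called members with the smallest p and largest fold changes, the core complex I, complex II, c subunit and complex IV isoform genes, and up to 3 genes with the smallest adjusted p of each related list. Further members and list genes are named for their role or for a difference between the tables, after their values were seen. The values of 1 member are not reported here, although it is part of the counts and medians. The members and lists were chosen with earlier results of these data known.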

Additional observations from a re-analysis of the deposited data

How the results depend on the processing

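Of the 59 called members, 45 kept call and direction in every alternative count fit and in the main RPKM fit, where tested. Among them were 43 of the 56 lowered genes. The members called lower numbered 47 to 56 over these fits, 47 coming from the fit without intensity trend. Among the 66 members with a neighbourhood median of -0.2 to 0.2, an alternative chosen after seeing the data, 47 were lower and 1 was higher. Leaving out 1 library gave 52 to 56 lowered members and medians of -0.28 to -0.22 over all members. The medians were -0.23 to -0.14 for complex I and -0.27 to -0.15 for complex III. They were -0.50 to -0.37 for complex IV and -0.53 to -0.37 for complex V. In RPKM the medians of complexes IV and V were -0.43 and -0.36, against -0.42 and -0.45 in counts. The median of complex II was -0.06 in counts and 0.011 in RPKM. The members whose sign turned had small values. In RPKM, NDUFV3 was -0.11, SDHD 0.083, UQCRC2 0.053 and UQCRFS1 0.022. With 1 library left out, NDUFB8 ranged from -0.016 to 0.067, NDUFS5 from -0.050 to 0.0011, NDUFV3 from -0.0047 to 0.042, SDHD from -0.044 to 0.0009, UQCRFS1 from -0.049 to 0.039 and ATP5MC1 from -0.081 to 0.083. The cause was not tested. Of the 59 calls, 11 ended in the RPKM table, UQCRC2 with a turned sign, and 9 in the fit without intensity trend. Genes called in the RPKM fit ranged from 4332 to 5793 over its alternatives. Members called lower there numbered 40 to 53, with 40 without WT library 2 or R320* library 2 and 53 without R320* library 1. The members' medians in these RPKM fits ranged from -0.31 to -0.24.

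Same-numbered libraries did not deviate together (correlations of 0.032, -0.003 and -0.003). No pairing by number was thus seen, although 3 libraries per genotype cannot exclude one. With the replicate block 56 members were lower and 4 higher, NDUFA11 being added (limma adjusted p = 0.0332), and 7854 genes were called in all. The planned count tests with edgeR and DESeq2 were not run. NDUFA3, NDUFA6 and ATP5F1E rest on RPKM alone, since their counts were too low to test, and genes that share reads with copies, readthrough or antisense genes are uncertain. By position, NDUFA4L2 overlaps SHMT2, NDUFA2 TMCO6, UQCRQ GDF9, ATP5F1B BAZ2A and ATP5PD KCTD2, among others. Whether reads were shared in these pairs was not tested.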
